A study of Mus musculus with 12 samples.

Results

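Blood-forming cells mobilized from the marrow by 5 days of G-CSF (granulocyte colony-stimulating factor), given in 9 injections, were compared with those mobilized by AMD3100 (plerixafor), a blocker of the chemokine receptor CXCR4, at 1 hour. The cells were LSK cells, the lineage-negative, Sca-1 positive and Kit positive fraction that holds hematopoietic stem and early progenitor cells, from the peripheral blood of male mice of the DBA2/J strain. The members are the arrays labelled G-CSF 1 to 3 and AMD3100 1 to 3, 6 of the 12 arrays of the series. The other 6 were LSK cells from blood after CWHM-823 with tGro-b, with no time given, and from the marrow of mice given PBS, 3 arrays each; they add to the estimate of the spread and are otherwise given as background levels. Agent and time differ together between the groups compared, so an effect of the agent and one of the longer exposure cannot be told apart. Blood of untreated mice was not among the samples. Whether a group's RNA came from 3 mice or pools is not in the labels, so the p-values rest on the spread between arrays, which may be technical. Kit and Ly6a (which encodes Sca-1), the transcripts of the positive gate, and 10 others usual in blood-forming cells, among them Ptprc, Cd34, Gata2 and Meis1, were well above background on all 6 arrays.

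G-CSF binds its receptor on myeloid cells and signals through JAK kinases and the transcription factors STAT3 and STAT5, which induce feedback inhibitors such as SOCS3 and drive granulocyte production. Mobilization by G-CSF builds up over days and involves changes in the marrow niche, including lower CXCL12 and proteolysis of adhesion molecules. AMD3100 acts within the hour by blocking the binding of CXCL12 to CXCR4, the receptor that holds stem and progenitor cells in the marrow.

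Levels are the log2 red (Cy5) signal of a gene's probe minus the 75th percentile of its array, so 0 is a fairly bright probe. A level says nothing about another gene's, since probes differ in brightness. Differences are G-CSF minus AMD3100 on the log2 scale, given as estimate ± standard error from 1 model over all 12 arrays with the slide as a block (limma, n = 3 arrays per group). A gene is said to rise or fall in G-CSF cells where its Benjamini-Hochberg adjusted p over all genes was under 0.05. The signal at the 75th percentile was 2188 to 2724 on the G-CSF arrays and 1146 to 1581 on the AMD3100 arrays. Between 72.5 and 78.9% of probes were above background on the G-CSF arrays, against 70.8 to 78.8% on the AMD3100 arrays. In bulk RNA, fewer cells of a type and less RNA per cell cannot be told apart.

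The difference was broad. Of 23698 genes tested, 14857 (62.7%) passed, 5461 (23.0%) higher and 9396 (39.6%) lower in G-CSF cells. The levels of the 3 G-CSF arrays and the 3 AMD3100 arrays did not overlap for 11290 genes (47.6%). Without the slide block, 7374 genes (31.1%) passed, 2996 (12.6%) higher and 4378 (18.5%) lower. The median gene was 0.37 lower (log2 difference -0.368), and this shift depended on the level: the medians were -0.796, -0.63, -0.0576 and 0.144 in 4 equal groups of genes from the dimmest to the brightest. With quantile normalization the median of all genes was -0.103, 12338 genes (52.1%) passed, 5952 (25.1%) higher and 6386 (26.9%) lower. With cyclic loess between the arrays 11916 (50.3%) passed, 6191 (26.1%) higher and 5725 (24.2%) lower, and with the array median in place of the 75th percentile 13985 (59.0%), 7235 (30.5%) higher and 6750 (28.5%) lower. At least 2-fold apart were 7486 (31.6%), 2246 (9.48%) higher and 5240 (22.1%) lower.

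**Figure D1:**
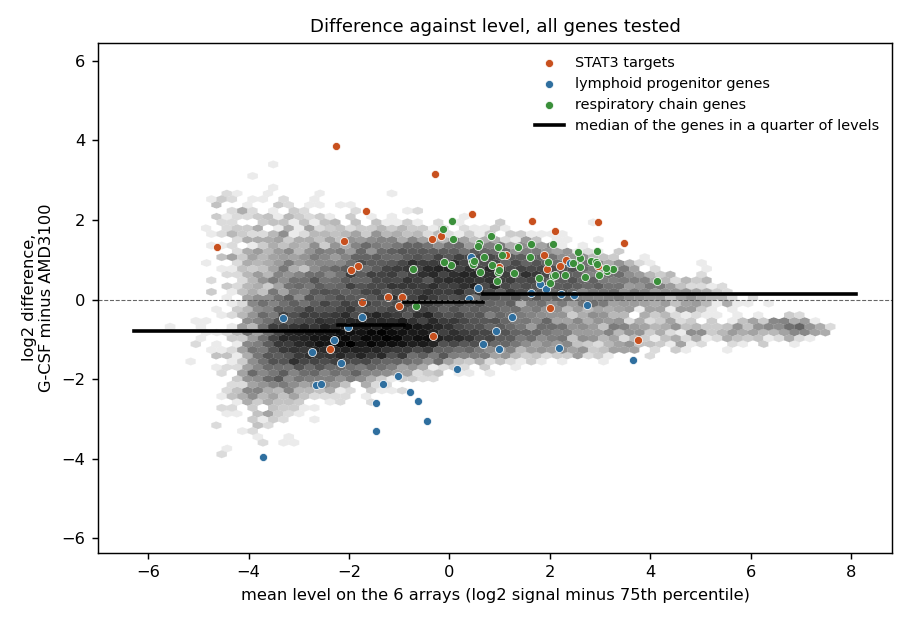
Log2 difference (G-CSF minus AMD3100) against the mean level on the 6 arrays; grey cells count the 23698 genes on a log scale, coloured points are members of 3 lists, and black lines are medians in 4 equal groups by level. The group medians climb from -0.796 to 0.144, respiratory chain genes lie mostly above 0 and lymphoid genes mostly below it, and the brightest genes form a band near -0.7.

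Several features of the arrays moved with the groups, and their part in the results was not tested beyond the fits given. The G-CSF arrays lay at positions 4, 3 and 4 of their slides and the AMD3100 arrays at positions 1, 1 and 2, with no position in common. A fit with the position as a factor beside the slide left 3 residual degrees of freedom and raised the standard error 1.6-fold, before each gene's own spread. In it 1 gene (0.00422%) passed, which was lower, although 8153 genes had an unadjusted p under 0.05. The position itself had an effect at an adjusted p under 0.05 on 0 genes (limma), and at an unadjusted p under 0.05 on 887 (3.74%). With 3 residual degrees of freedom that test had little power, so its counts cannot decide whether the position mattered. Of 160 genes named by the rule given with the methods, 150 passed in the comparison without the position. All 150 kept their direction in the position fit, 129 of them at an unadjusted p under 0.05, and their smallest adjusted p there was 0.0755. Every call given here is without the position term.

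Entries not matched to the RefSeq gene table, and probes with sequence shared by many others, shifted downward. Of 16586 genes whose name matched the RefSeq gene table, 4806 (28.98%) rose and 5625 (33.91%) fell, with a median of -0.10. Of 7112 unmatched entries, 655 (9.21%) rose and 3771 (53.02%) fell, with a median of -0.73. Where a run of 15 bases of the probe also stood in 50 or more probes of the array, 1 of 164 genes rose and 157 fell, at a median level of 6.59 and a median difference of -0.74. Olfactory and vomeronasal receptor genes, which sensory neurons use to detect odours and pheromones, had 0 of 687 measured members rise and 551 fall, with a median of -1.2. With quantile normalization 5 rose and 379 fell (median -0.856), with cyclic loess 6 rose and 322 fell (median -0.754), and without the block 0 rose and 316 fell. This list was added after the data were seen. Their median level over the 687 measured members was -2.90, -2.09 and -3.12 on the G-CSF arrays, against -1.46, -1.20 and -1.86 on the AMD3100 arrays. Among the brightest of 4 equal groups of matched genes, 1708 (41.19%) rose and 1046 (25.22%) fell, with a median of 0.29, and among the dimmest, 614 (14.81%) rose and 1705 (41.11%) fell, with a median of -0.71.

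STAT3 feedback and target genes were higher in G-CSF cells. In that list 21 of 29 measured members (of 30 listed) rose, 2 fell and 6 did not pass, with a median of 0.982 against -0.368 over all genes and the shares of 23.0% higher and 39.6% lower given above. The list medians within slides 1 to 3 were 1.13, 0.86 and 0.86. Bcl3, a nuclear cofactor of NF-kB that STAT3 induces, stood at 1.37, 0.94 and 1.56 in G-CSF cells, against -2.06, -1.90 and -1.61 in AMD3100 cells. The groups lay far apart, with a difference of 3.15 ± 0.20 (adjusted p = 0.000379). Bcl3 averaged -1.63 in CWHM-823+tGro-b blood and -1.96 in PBS marrow, so the G-CSF arrays alone stood high.

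Socs3, the feedback inhibitor that binds the G-CSF receptor, had levels of 3.97, 3.70 and 4.08 in G-CSF cells, against 1.80, 1.92 and 2.22 in AMD3100 cells. Its difference was 1.94 ± 0.30 (adjusted p = 0.00201), again without overlap. Socs3 averaged 2.56 in CWHM-823+tGro-b blood and -0.50 in PBS marrow, so the AMD3100 arrays lay above marrow and the G-CSF arrays above both. Pim1, a serine/threonine kinase and STAT target, was at 3.18, 2.53 and 3.19 in G-CSF cells, against 1.21, 1.07 and 1.44 in AMD3100 cells. Pim2, its relative, was at 1.63, 1.20 and 1.72 in G-CSF cells, against -0.85, -0.88 and -0.17 in AMD3100 cells. The kinases rose by 1.73 ± 0.18 (adjusted p = 0.000892) and 2.15 ± 0.21 (adjusted p = 0.000853). Cebpd, a transcription factor of granulocyte development, was at 0.18, -0.81 and -0.38 in G-CSF cells, against -3.30, -3.77 and -5.50 in AMD3100 cells, and it exceeded background on 3 G-CSF arrays and 2 AMD3100 arrays. It rose by 3.85 ± 0.35 (adjusted p = 0.000779). Mcl1, a survival factor of the Bcl2 family, rose by 1.11 ± 0.17 (adjusted p = 0.002). The 2 members that fell were Prdm1, a transcriptional repressor of lymphoid cells (-1.02), and Lrg1, a secreted glycoprotein of neutrophils (-0.93). Both are named because they were the exceptions. Neither fall passed without the slide block, where 17 members of the list rose and 0 fell. With quantile normalization 21 rose and 2 fell, and with array-median scaling 21 rose and 1 fell.

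**Figure D2:**
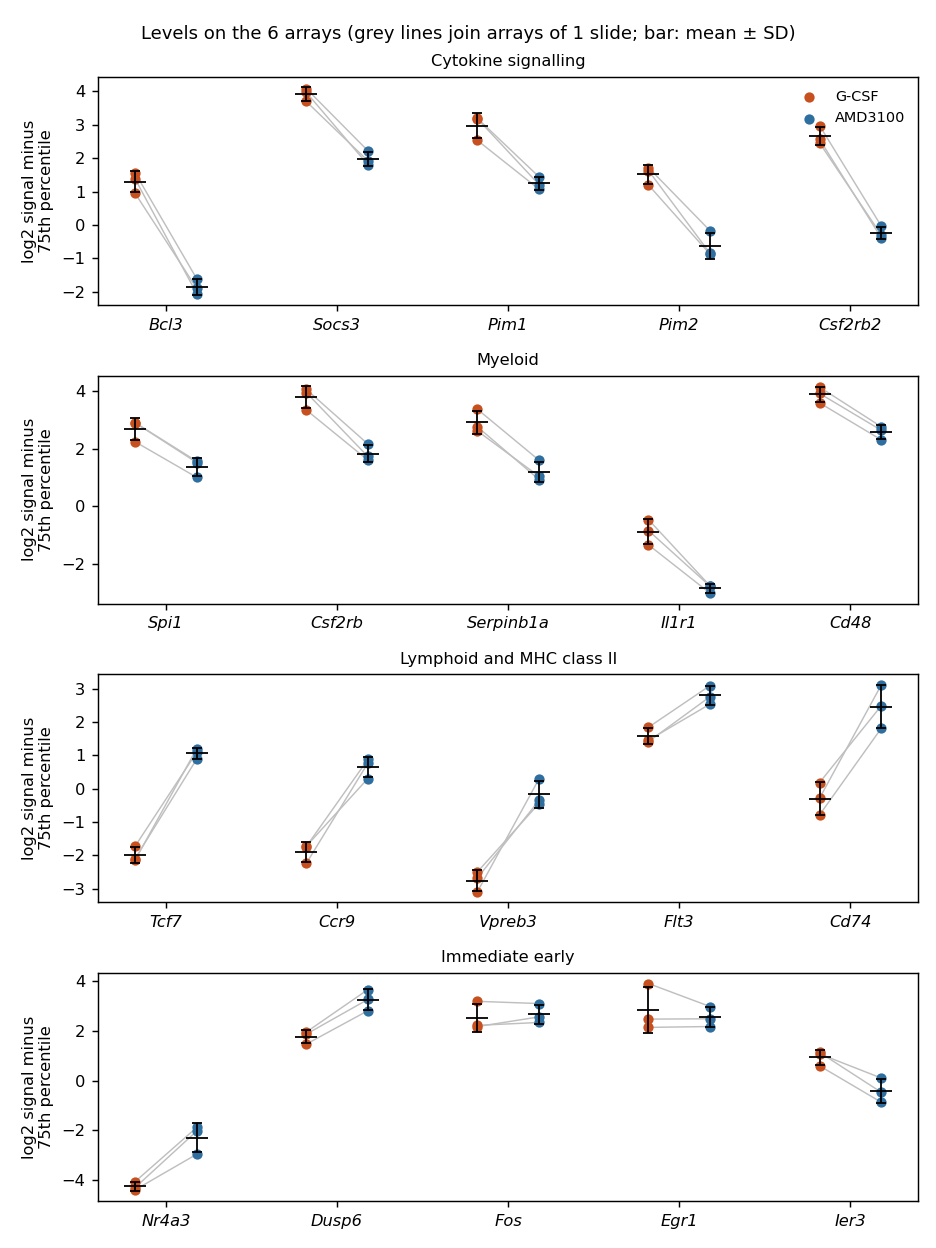
Levels of 20 genes (log2 signal minus the array's 75th percentile) in G-CSF cells (left of each pair, orange) and AMD3100 cells (right, blue); points are arrays, black marks are means with SD (n = 3), and grey lines join arrays of 1 slide. Bcl3 lies at 0.94 to 1.56 in G-CSF cells and at -2.06 to -1.61 in AMD3100 cells, Tcf7 and Cd74 run the other way, and Fos and Egr1 overlap.

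STAT factors bind the GAS element, TTCNNNGAA, which is its own reverse complement. These letters were searched on both strands in RefSeq promoters of the GRCm38.p6 build, 250 bases before to 50 after the start. Of 26 genes of the STAT3 list with a promoter in the table, 8 (30.8%) held a match in at least 1 of their promoters, against 1238 of 13865 genes tested (8.93%) and 8.30% of all 32851 promoter windows. Of the 19 members that rose and had a promoter, 6 held a match. Among them were Socs3, Cish, a SOCS family inhibitor of STAT5 signalling (1.52, adjusted p = 0.00243), and Irf1, an interferon regulatory factor (0.78, adjusted p = 0.00757); Cish and Irf1 were chosen for their matches after their values were seen. The promoters of these 3 are shown because they carry the GAS letters, in capitals, on the strand of the gene. They lie at chr11:117969317-117969616 (minus strand), chr9:107296409-107296708 (plus strand) and chr11:53769764-53770063 (plus strand).
Socs3: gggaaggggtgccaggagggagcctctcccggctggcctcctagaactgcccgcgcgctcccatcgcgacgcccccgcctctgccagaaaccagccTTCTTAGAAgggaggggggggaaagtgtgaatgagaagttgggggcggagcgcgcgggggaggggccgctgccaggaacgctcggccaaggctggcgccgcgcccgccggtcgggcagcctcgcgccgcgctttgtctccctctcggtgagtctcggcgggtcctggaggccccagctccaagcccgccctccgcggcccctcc
Cish: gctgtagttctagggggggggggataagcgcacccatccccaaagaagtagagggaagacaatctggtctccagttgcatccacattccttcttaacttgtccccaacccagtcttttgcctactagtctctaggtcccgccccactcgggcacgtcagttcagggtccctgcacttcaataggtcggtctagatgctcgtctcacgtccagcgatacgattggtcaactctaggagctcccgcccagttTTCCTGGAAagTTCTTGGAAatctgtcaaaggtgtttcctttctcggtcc
Irf1: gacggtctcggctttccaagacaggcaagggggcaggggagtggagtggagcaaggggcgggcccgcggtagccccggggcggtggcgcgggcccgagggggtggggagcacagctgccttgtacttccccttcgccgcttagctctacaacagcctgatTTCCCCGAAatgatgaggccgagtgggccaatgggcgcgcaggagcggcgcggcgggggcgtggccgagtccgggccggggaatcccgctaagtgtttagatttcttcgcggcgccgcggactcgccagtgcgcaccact
A match is a description of the letters and not a binding site. Across all genes that rose, 8.36% of those with a promoter held the GAS letters, and across all that fell, 9.88%.

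Receptors for other hematopoietic cytokines also differed: 11 of 27 measured members (of 28 listed) rose, 3 fell and 13 did not pass (median 0.198), and without the block 7 rose and 3 fell. Csf2rb2, the mouse beta chain specific for IL-3, stood at 2.56, 2.45 and 2.98 in G-CSF cells, against -0.38, -0.29 and -0.029 in AMD3100 cells. The groups were separated by 2.90 ± 0.15 (adjusted p = 0.000208), the smallest adjusted p among the named genes. Csf2rb, the beta chain shared by the IL-3, IL-5 and GM-CSF receptors, was at 3.95, 3.35 and 4.06 in G-CSF cells, against 1.73, 1.60 and 2.16 in AMD3100 cells, a difference of 1.95 ± 0.15 (adjusted p = 0.000547). Both genes are close copies, and how far their probes cross-hybridise was not tested. Il1r1, the signalling receptor of IL-1, stood at -0.46, -0.84 and -1.34 in G-CSF cells, against -2.76, -2.77 and -3.02 in AMD3100 cells and rose by 1.97 ± 0.29 (adjusted p = 0.00178). Il7r and Flt3, receptors of lymphoid progenitors, fell and are described with those cells.

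The probe for Csf3r, the gene of the G-CSF receptor itself, read 5.21, 5.69 and 5.41 in G-CSF cells, against 6.10, 6.28 and 6.14 in AMD3100 cells. Its difference was -0.74 ± 0.16 (adjusted p = 0.00535), and with quantile normalization it was -0.22 (adjusted p = 0.191). The scanner output places this probe at chr19:60157892-60157951 in mm9, whereas the gene table has Csf3r on chromosome 4. A run of 15 bases in it, ctttaatcccagcac, stands in 9 probes of the array on either strand; it is shown because it sets this probe apart from a probe unique to 1 gene. Of the 615 genes whose probe has such a run in 5 to 9 probes, 33 (5.37%) rose and 325 (52.85%) fell. Their median difference was -0.63, at a median level of 2.15. No level of the receptor is taken from the Csf3r probe.

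Genes of myeloid progenitors and primary granules rose more often than they fell: 10 of 20 measured members (of 23 listed) rose, 2 fell and 8 did not pass, with a median of 0.783. Without the slide block 10 rose and 2 fell, and with quantile normalization 11 rose and 1 fell. Ms4a3, a membrane protein of granulocyte and monocyte progenitors, exceeded background on all 3 G-CSF arrays and on 0 AMD3100 arrays. Its levels were 1.01, 0.53 and -0.12 in G-CSF cells, against -5.58, -4.65 and -5.96 in AMD3100 cells, and it was at least 17.3-fold higher (adjusted p = 0.00106). Here and below, an at-least fold sets each array on which a gene was not above background at the lowest signal above background of that array, or at its own signal if higher. Ms4a3 averaged -4.77 in CWHM-823+tGro-b blood and -3.31 in PBS marrow.

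Spi1, which encodes the myeloid master regulator PU.1, was at 2.90, 2.24 and 2.90 in G-CSF cells, against 1.56, 1.0 and 1.52 in AMD3100 cells and rose by 1.32 ± 0.17 (adjusted p = 0.00139). Serpinb1a, an inhibitor of neutrophil serine proteases, was at 3.37, 2.62 and 2.76 in G-CSF cells, against 1.60, 1.04 and 0.93 in AMD3100 cells and rose by 1.73 ± 0.17 (adjusted p = 0.000879). Among other members, the granule proteases Elane (2.41), Prtn3 (1.70) and Ctsg (1.51) rose with them, and so did Gfi1 (1.40) and Cebpa (1.0), transcription factors of the granulocyte line; they are named after their values were seen, to show the range. Irf8, a transcription factor of monocytes and dendritic cells, fell (-1.14), as did the Csf3r probe. In the list of mature neutrophil markers 0 of 11 measured members (of 14 listed) rose, 1 fell and 10 did not pass. Camp, an antimicrobial peptide of secondary granules, had -1.95, -2.02 and -2.13 in G-CSF cells, against -0.71, -1.17 and -0.61 in AMD3100 cells (difference -1.21, adjusted p = 0.185), and Ngp exceeded background on 0 G-CSF arrays and 1 AMD3100 array. The 1 marker that fell was Fpr1, the formyl peptide receptor, above background on 1 G-CSF array and 3 AMD3100 arrays (-2.22 ± 0.59, adjusted p = 0.0111).

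Lymphoid progenitor genes were lower in G-CSF cells. In this list 2 of 33 measured members (of 34 listed) rose, 20 fell and 11 did not pass, with a median of -1.12 against -0.368 over all genes, and -0.922 with quantile normalization, where 2 rose and 18 fell. The within-slide medians were -1.01, -0.77 and -1.09. The list was not dim, with a median level of 0.153 over the 6 arrays. Tcf7, the transcription factor TCF-1 of early T lineage cells, stood at -2.14, -1.72 and -2.09 in G-CSF cells, against 1.21, 1.1 and 0.90 in AMD3100 cells. All G-CSF arrays lay far below all AMD3100 arrays, and the difference was -3.05 ± 0.33 (adjusted p = 0.000906). Tcf7 averaged -0.22 in CWHM-823+tGro-b blood and -1.24 in PBS marrow.

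Ccr9, a chemokine receptor of thymus-seeding progenitors, was at -1.73, -1.72 and -2.24 in G-CSF cells, against 0.88, 0.31 and 0.77 in AMD3100 cells (difference -2.55 ± 0.22, adjusted p = 0.000594). Vpreb3, a pre-B cell chaperone, was at -2.68, -2.50 and -3.09 in G-CSF cells, against -0.35, -0.44 and 0.30 in AMD3100 cells (difference -2.59 ± 0.25, adjusted p = 0.00082). The B lineage factor Pax5 was at -0.65, -0.19 and -1.31 in G-CSF cells, against 1.11, 1.1 and 0.85 in AMD3100 cells (difference -1.74 ± 0.20, adjusted p = 0.00111). Flt3, the cytokine receptor of multipotent and lymphoid progenitors, was at 1.85, 1.46 and 1.42 in G-CSF cells, against 3.10, 2.54 and 2.77 in AMD3100 cells (difference -1.23 ± 0.20, adjusted p = 0.00227). Its other 2 probes were also lower, at -0.90 and -0.72. Il7r, the receptor of the lymphoid growth factor IL-7, exceeded background on 0 G-CSF arrays and 3 AMD3100 arrays and was at least 6.46-fold lower (adjusted p = 0.00176). Bank1, a B cell adaptor outside the list, was at least 5.42-fold lower (adjusted p = 0.0171); that call was lost without G-CSF array 3 or AMD3100 array 2, and with quantile normalization (adjusted p = 0.0525). Foxo1 (1.07) and Il2rg (0.92) were the 2 members that rose.

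**Figure D3:**
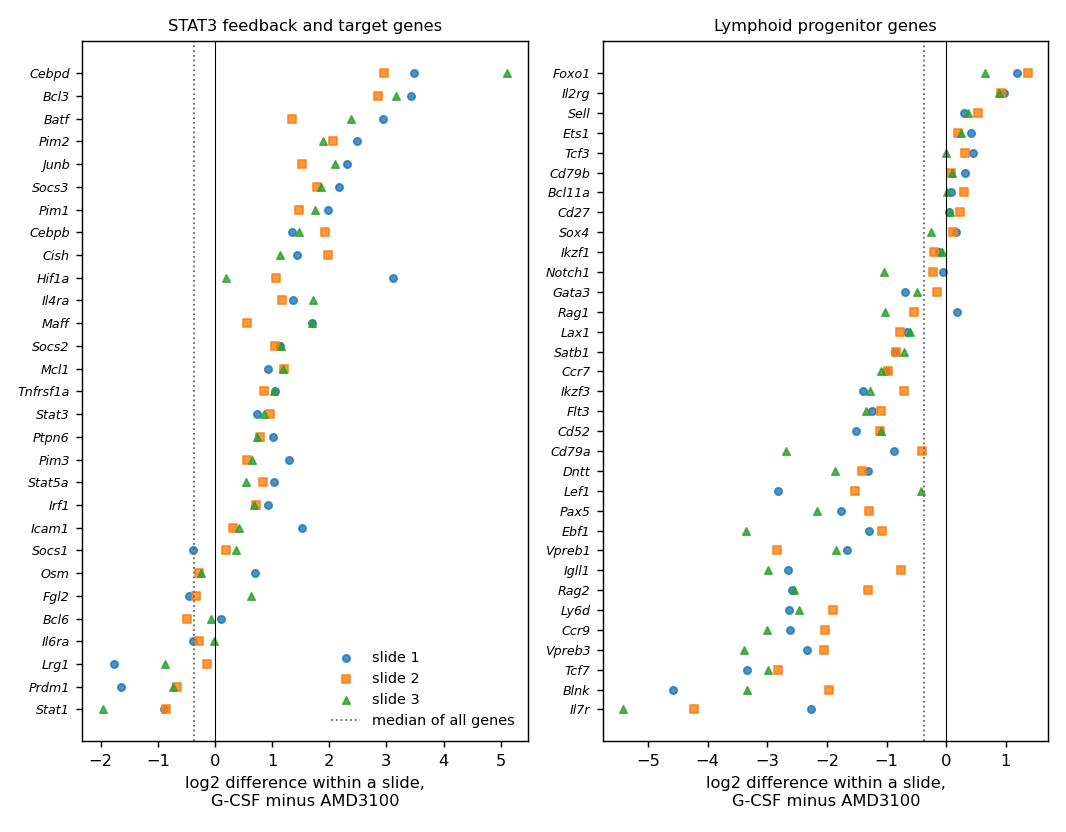
Log2 difference (G-CSF minus AMD3100) within each of the 3 slides for the measured STAT3 feedback and target genes (29, left) and lymphoid progenitor genes (33, right), ordered by the fitted difference; the dotted line is the median of all genes. Most STAT3 list members lie above 0 on every slide, and Tcf7, Ccr9, Vpreb3 and Il7r lie below -2 on every slide.

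MHC class II genes fell or did not pass: 0 of 10 measured members (of 10 listed) rose, 5 fell and 5 did not pass (median -0.841). Cd74, the invariant chain, was at 0.19, -0.78 and -0.28 in G-CSF cells, against 2.49, 1.81 and 3.11 in AMD3100 cells (difference -2.76 ± 0.39, adjusted p = 0.00174), with no overlap. H2-Eb1, a class II beta chain, was at -1.55, -4.53 and -3.70 in G-CSF cells, against 1.57, 0.21 and 1.54 in AMD3100 cells, above background on 2 G-CSF arrays and 3 AMD3100 arrays (difference -4.37 ± 0.56, adjusted p = 0.00136). H2-Ab1 (-1.17 ± 0.21) and Ciita, the class II transactivator (-1.08 ± 0.21), fell too. In PBS marrow Cd74 averaged 2.00 and H2-Eb1 -0.085.

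Dendritic cell markers, which share Cd74, H2-Aa, H2-Ab1, H2-Eb1 and Flt3 with the lists above, moved the same way: 0 of 10 measured members (of 12 listed) rose, 9 fell and 1 did not pass (median -1.2), and without the block 0 rose and 6 fell. Zbtb46, a transcription factor of conventional dendritic cells, had a difference of -1.51 ± 0.17 (adjusted p = 0.00111). Of B cell markers 0 of 9 measured members (of 12 listed) rose, 6 fell and 3 did not pass (median -0.963), with Cr2 at -1.07 ± 0.17, Fcer2a at -0.96 ± 0.17 and Cd22 at -1.0 ± 0.19. Without the block 0 rose and 3 fell, with Cr2 and Cd22 among those lost (adjusted p = 0.275 and 0.0695), and the arrays of the groups overlapped for both. Of T cell markers 1 of 7 measured members (of 12 listed) rose, 4 fell and 2 did not pass, with Cd5 at -2.17 ± 0.31 and Cd3e, part of the T cell receptor complex, at -1.34 ± 0.31, and without the block 1 rose and 2 fell. Thy1, found on T cells and on some progenitors, was the T cell marker that rose (1.31 ± 0.17, adjusted p = 0.00134). Of NK cell markers 0 of 10 measured members (of 12 listed) rose, 5 fell and 5 did not pass, with Il2rb, an IL-2 and IL-15 receptor chain, at -1.65 ± 0.20 and the T-bet gene Tbx21 at -1.1 ± 0.21. For NK cell markers 0 rose and 3 fell without the block, where Tbx21 did not pass (adjusted p = 0.0829). The median level of the measured B cell markers was -0.28, 0.35 and -0.19 on the G-CSF arrays, against 0.94, 1.27 and 1.03 on the AMD3100 arrays. That of the measured dendritic cell markers was -1.36, -0.89 and -1.46, against 0.73, 0.34 and 0.77. Of 11 B cell markers on the array, 8 to 10 were above background on the G-CSF arrays and 9 to 10 on the AMD3100 arrays, and of 12 dendritic cell markers, 8 to 10 and 9 to 11. The part of other blood cells in the lymphoid and class II differences was not tested, and these falls stand beside the 39.6% lower among all genes and the 551 (322 with cyclic loess) of 687 among sensory receptor genes.

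Of monocyte and macrophage markers 2 of 14 measured members (of 16 listed) rose, 5 fell and 7 did not pass (median -0.56). The 35.7% lower is near the 39.6% of all genes, with quantile normalization 2 rose and 2 fell, and without the block 0 rose and 1 fell. Fcgr1, a high-affinity Fc receptor, had -1.31 ± 0.15 (adjusted p = 0.00112; 0.0554 without the slide block). Adgre1, which encodes F4/80, had -0.91 ± 0.25, whereas its other probe gave 2.14, and the complement gene C1qa exceeded background on 1 G-CSF array and 3 AMD3100 arrays. Adgre1 did not pass without the block (adjusted p = 0.0577). The calls of Adgre1, C1qa and C1qb were lost when single arrays of either group were left out. Of endothelial and stromal markers 3 of 12 measured members (of 13 listed) rose, 6 fell and 3 did not pass, with the receptor kinases Tie1 (1.41 ± 0.18) and Pdgfrb (1.23 ± 0.30) higher, and Kitl, the stem cell factor (-1.39 ± 0.30), and Kdr, a VEGF receptor (-0.77 ± 0.19), lower. For Kitl and Kdr the arrays of the groups overlapped, Kdr did not pass without the block (adjusted p = 0.0935), and with quantile normalization 2 rose and 2 fell. The list's 25% higher is near the 23.0% of all genes, and its 50% lower stands beside their 39.6%.

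In the list of stem cell genes 11 of 40 measured members (of 40 listed) rose, 2 fell and 27 did not pass, with a median of 0.0959, so most members did not pass. The 27.5% higher is near the 23.0% of all genes, and the 5% lower is below their 39.6%. Slamf1, the stem cell antigen CD150, exceeded background on 3 G-CSF arrays and 0 AMD3100 arrays and was at least 3.95-fold higher (adjusted p = 0.00124). It averaged -1.62 in G-CSF cells, -2.42 in CWHM-823+tGro-b blood and -1.68 in PBS marrow, above background on all 3 arrays of each. Cd48, an antigen of committed progenitors, was at 3.92, 3.59 and 4.14 in G-CSF cells, against 2.64, 2.31 and 2.77 in AMD3100 cells and rose by 1.31 ± 0.18 (adjusted p = 0.0016). Esam, an adhesion molecule of stem cells and endothelium, was at 1.03, 0.73 and 1.06 in G-CSF cells, against -0.75, -0.62 and -0.38 in AMD3100 cells and rose by 1.53 ± 0.23 (adjusted p = 0.00187). Pbx3, a homeodomain cofactor, rose by 2.19 ± 0.31 (adjusted p = 0.00169), and it averaged -0.81 in G-CSF cells and -0.89 in PBS marrow. Marrow averages of Cd48 and Esam were 2.27 and 0.47. The antigens of the sort were measured too: Ly6a was at 0.81, 0.61 and 0.69 in G-CSF cells, against -1.03, -0.28 and -1.38 in AMD3100 cells (difference 1.61 ± 0.26, adjusted p = 0.00221), and Kit was at 3.42, 3.17 and 3.33 in G-CSF cells, against 3.44, 3.05 and 3.28 in AMD3100 cells, which overlapped (difference 0.055 ± 0.14, adjusted p = 0.746). Both proteins were used to select the cells. Cd34 rose by 0.77 ± 0.15 (adjusted p = 0.00321).

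Adhesion and homing genes went both ways: 14 of 36 measured members (of 41 listed) rose, 8 fell and 14 did not pass (median 0.264), and without the block 9 rose and 4 fell. Selp, the adhesion receptor P-selectin, had the second largest increase under the naming rule, at 1.74, 1.37 and 1.48 in G-CSF cells, against -1.95, -2.01 and -1.71 in AMD3100 cells. Its difference was 3.42 ± 0.24 (adjusted p = 0.000547), and it averaged -2.04 in CWHM-823+tGro-b blood and -3.42 in PBS marrow. Cd9, a tetraspanin, was at 2.07, 1.80 and 1.42 in G-CSF cells, against 0.09, 0.21 and -0.32 in AMD3100 cells and rose by 1.77 ± 0.19 (adjusted p = 0.000906). S1pr4, a receptor for the egress signal sphingosine 1-phosphate, rose by 1.20 ± 0.16 (adjusted p = 0.00137). Itgb1, the beta chain of the integrin VLA-4, was at 1.45, 1.0 and 1.25 in G-CSF cells, against -0.45, -0.089 and -0.079 in AMD3100 cells and rose by 1.44 ± 0.25 (adjusted p = 0.00244), whereas its partner Itga4 was at 1.41, 1.04 and 1.73 in G-CSF cells, against 0.93, 1.0 and 1.74 in AMD3100 cells and did not pass (difference 0.17 ± 0.18, adjusted p = 0.418).

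Cxcr4, the target of AMD3100, was at 3.32, 3.74 and 2.95 in G-CSF cells, against 3.89, 3.44 and 3.58 in AMD3100 cells. The groups overlapped, with a difference of -0.30 ± 0.21 (adjusted p = 0.224). Cxcr2, a chemokine receptor of neutrophils, was at -0.068, -0.26 and -0.094 in G-CSF cells, against 0.16, -0.46 and -0.42 in AMD3100 cells and did not pass (difference 0.10 ± 0.27, adjusted p = 0.763). A p over the threshold does not show that levels were equal.

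Immediate early genes, switched on within minutes of many stimuli, were split: 11 of 39 measured members (of 39 listed) rose, 6 fell and 22 did not pass (median 0.168), and without the block 6 rose and 4 fell. The 28.2% higher is near the 23.0% of all genes, and the 15.4% lower is below their 39.6%. Nr4a3, an orphan nuclear receptor, was at -4.05, -4.38 and -4.29 in G-CSF cells, against -1.88, -2.95 and -2.02 in AMD3100 cells (difference -1.96 ± 0.20, adjusted p = 0.000892). The Nr4a3 call was lost with another background correction (normexp). Its difference was -1.37 with quantile normalization and -1.23 with cyclic loess. Dusp6, a phosphatase that turns off ERK, was at 1.95, 1.47 and 1.87 in G-CSF cells, against 3.66, 2.81 and 3.26 in AMD3100 cells (difference -1.48 ± 0.19, adjusted p = 0.00132). On the other side, Ier3 was at 1.07, 0.59 and 1.13 in G-CSF cells, against 0.11, -0.86 and -0.47 in AMD3100 cells (difference 1.34 ± 0.19, adjusted p = 0.00176), and Csrnp1, a nuclear protein, rose by 1.57 ± 0.22 (adjusted p = 0.00171).

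Fos, an AP-1 subunit, was at 2.17, 2.22 and 3.18 in G-CSF cells, against 2.56, 2.33 and 3.09 in AMD3100 cells and Egr1, a zinc finger factor, at 2.47, 2.14 and 3.90 in G-CSF cells, against 2.48, 2.17 and 2.97 in AMD3100 cells; neither passed (differences -0.14 ± 0.22 and 0.29 ± 0.31, adjusted p = 0.587 and 0.415). Both groups lay above PBS marrow, where Fos averaged 1.18 and Egr1 1.29. Klf2, a factor of lymphocyte and stem cell quiescence, passed at 0.98 ± 0.35 (adjusted p = 0.0336). That call was lost without the slide block (adjusted p = 0.0895), without any 1 of the 3 G-CSF arrays and without AMD3100 array 2 or 3. Of MAPK feedback inhibitors 2 of 13 measured members (of 17 listed) rose, 5 fell and 6 did not pass. The phosphatase Dusp8 (-1.20 ± 0.25) and the receptor kinase inhibitor Spry2 (-0.73 ± 0.20) were lower. Dusp7, another phosphatase, read -0.77 ± 0.18 on its brighter probe. The list's 38.5% lower is near the 39.6% of all genes, and with quantile normalization 2 rose and 3 fell. Spry2 did not pass without the block (adjusted p = 0.205) or without AMD3100 array 1, and Dusp7 did not pass with quantile normalization (adjusted p = 0.0668). The brighter Dusp7 probe is among the entries not matched to the gene table. Its second probe passed the other way (0.69), so no direction is taken for Dusp7.

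NF-kB targets and inflammatory genes moved both ways: 9 of 26 measured members (of 29 listed) rose, 8 fell and 9 did not pass (median 0.457). The split depended on the scaling, since with quantile normalization 10 rose and 4 fell, and without the block 5 rose and 2 fell. Bcl3 was the largest increase. Ccl3, a chemokine of activated leukocytes, was at 0.19, 0.87 and 1.40 in G-CSF cells, against 2.21, 1.98 and 3.04 in AMD3100 cells (difference -1.58 ± 0.33, adjusted p = 0.00446). Il1b, the inflammatory cytokine IL-1 beta (-0.81 ± 0.14), and Cxcl1, a neutrophil chemokine above background on 2 G-CSF arrays and 3 AMD3100 arrays (-0.99 ± 0.20), fell with arrays of the groups overlapping, and neither passed without the block (adjusted p = 0.139 and 0.121). Of interferon response genes 15 of 41 measured members (of 43 listed) rose, 10 fell and 16 did not pass (median 0.265), and without the block 9 rose and 3 fell. Tnfsf10, the death ligand TRAIL, was at 0.49, 0.24 and 0.51 in G-CSF cells, against -1.71, -2.00 and -1.50 in AMD3100 cells and rose by 2.15 ± 0.18 (adjusted p = 0.00059). Ifitm3, a restriction factor (1.13 ± 0.16), and the GTPase Gbp3 (1.58 ± 0.26) rose, and Rsad2, the antiviral enzyme viperin, fell (-1.28 ± 0.18, adjusted p = 0.00174).

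Cell cycle genes were taken in 4 lists, set beside the 23.0% higher and 39.6% lower among all genes. For CDK inhibitors, D cyclins and G1 genes 46.2% were higher and 3.85% lower. For DNA replication genes these shares were 61.5% and 7.69%, and for mitosis and spindle genes 44.7% and 10.5%. For homologous recombination and Fanconi genes they were 29.4% and 23.5%. Of CDK inhibitors, D cyclins and G1 genes 12 of 26 measured members (of 28 listed) rose, 1 fell and 13 did not pass (median 0.63). Cdkn2d, the CDK4 and CDK6 inhibitor p19, was at 0.34, -0.14 and 0.81 in G-CSF cells, against -2.14, -2.13 and -1.56 in AMD3100 cells and rose by 2.28 ± 0.19 (adjusted p = 0.00059). Cdkn1a, the p53 target p21, rose by 1.37 ± 0.17, although its other probe gave -0.74. Ccnd3, a D cyclin (1.0 ± 0.15), and Cdc25a, a phosphatase that activates CDKs (1.05 ± 0.17), also rose. Both activators and inhibitors of the cycle thus lie among the members that passed.

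Of DNA replication genes 24 of 39 measured members (of 40 listed) rose, 3 fell and 12 did not pass (median 0.695). Without the block 14 rose and 2 fell. Rfc1, the large subunit of the clamp loader, was at 0.22, -0.35 and 0.24 in G-CSF cells, against -1.02, -1.50 and -1.09 in AMD3100 cells and rose by 1.24 ± 0.16 (adjusted p = 0.00145). Pola1, the catalytic subunit of polymerase alpha (1.29 ± 0.26), and Tk1, thymidine kinase (2.01 ± 0.32, above background on 3 G-CSF arrays and 2 AMD3100 arrays), rose. Tyms, thymidylate synthase, was at -2.88, -2.01 and -3.60 in G-CSF cells, against -1.51, -0.16 and -1.31 in AMD3100 cells and fell (-1.83 ± 0.33, adjusted p = 0.00279). Of genes of homologous recombination and the Fanconi pathway 5 of 17 measured members (of 20 listed) rose, 4 fell and 8 did not pass (median -0.0822), and without the block 1 rose and 0 fell. Brca2 rose by 1.46 ± 0.28, Rad54l by 0.84 ± 0.22, and the checkpoint kinase gene Chek1 fell (-1.08 ± 0.28); the last 2 did not pass without the block (adjusted p = 0.0566 and 0.0576). Bard1 read 0.77 ± 0.25 on its brightest probe and between -3.12 and -0.74 on its other 2, and -0.51 with quantile normalization, so no direction is taken.

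Of mitosis and spindle genes 17 of 38 measured members (of 40 listed) rose, 4 fell and 17 did not pass (median 0.374). The median level of its measured members overlapped between the groups, at -0.93, -1.29 and -0.997 on the G-CSF arrays, against -1.32, -0.92 and -1.17 on the AMD3100 arrays. Birc5, the survivin subunit of the chromosomal passenger complex, was at 2.40, 2.03 and 1.42 in G-CSF cells, against 0.69, 0.70 and 0.32 in AMD3100 cells and rose by 1.38 ± 0.23 (adjusted p = 0.00223). Cdc20, the activator of the anaphase-promoting complex, was at 2.39, 1.61 and 1.97 in G-CSF cells, against 1.23, 0.16 and 0.63 in AMD3100 cells and rose by 1.32 ± 0.23 (adjusted p = 0.00263). Aurkb, the kinase of the passenger complex, exceeded background on 3 G-CSF arrays and 0 AMD3100 arrays and at least 1.48-fold higher. Hmmr, a spindle protein, fell (-1.1 ± 0.17, adjusted p = 0.00208). Mki67, the proliferation marker Ki-67, was at 0.92, 0.73 and 1.25 in G-CSF cells, against 0.71, 0.40 and 1.05 in AMD3100 cells and did not pass (difference 0.25 ± 0.17, adjusted p = 0.22). In PBS marrow Birc5 averaged 2.37 and Cdc20 2.27.

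The CHR element of cell cycle promoters, TTTGAA, read on both strands, was present in at least 1 promoter of 27 of 35 mitosis genes (77.1%), against 2263 of 13865 genes tested (16.3%) and 17.9% of all windows. Of the 15 members that rose and had a promoter, 12 held it (80.0%), near the share of the whole list. Across all genes that rose, 14.3% of those with a promoter held these letters, and across all that fell, 19.6%. The Cdc20 promoter, at chr4:118437294-118437593 on the minus strand in GRCm38.p6, is shown because its window holds these letters, in capitals.
Cdc20: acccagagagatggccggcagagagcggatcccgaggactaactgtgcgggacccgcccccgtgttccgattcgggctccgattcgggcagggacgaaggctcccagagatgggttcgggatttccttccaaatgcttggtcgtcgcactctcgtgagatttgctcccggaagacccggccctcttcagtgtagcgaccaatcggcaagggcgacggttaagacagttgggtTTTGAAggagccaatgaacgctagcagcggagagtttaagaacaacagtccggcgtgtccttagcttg

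Genes of the respiratory chain rose almost throughout: 43 of 46 measured members (of 46 listed) rose, 0 fell and 3 did not pass, with a median of 0.901 against -0.368 over all genes. The within-slide medians were 1.07, 0.89 and 0.70. With quantile normalization 41 rose and 0 fell, and without the block 23 rose and 0 fell. Ndufv1, a core subunit of complex I, was at 1.51, 0.70 and 0.90 in G-CSF cells, against -1.30, -0.61 and -0.90 in AMD3100 cells and rose by 1.98 ± 0.28 (adjusted p = 0.00169). Uqcrfs1, the Rieske protein of complex III, was at 1.63, 1.40 and 1.83 in G-CSF cells, against 0.36, 0.053 and 0.48 in AMD3100 cells and rose by 1.32 ± 0.18. Cox4i1, a subunit of complex IV (1.40 ± 0.20), and Atp5j, a subunit of the ATP synthase (1.34 ± 0.17), rose as well. The list is bright, with a median level of 1.49, and of the brightest of the 4 groups of matched genes 41.19% rose.

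Of glycolysis and hypoxia genes 16 of 28 measured members (of 29 listed) rose, 0 fell and 12 did not pass (median 0.513), and without the block 9 rose and 0 fell. Hk2, a hexokinase, was at 0.30, -0.30 and -0.48 in G-CSF cells, against -1.27, -1.76 and -1.97 in AMD3100 cells and rose by 1.51 ± 0.21 (adjusted p = 0.00169). Pfkl, a phosphofructokinase (1.74 ± 0.23), Pfkfb3, which makes its activator (1.27 ± 0.21), and the hypoxia gene Ndrg1 (1.64 ± 0.20) rose. Of cholesterol synthesis and sterol control genes 18 of 30 measured members (of 31 listed) rose, 1 fell and 11 did not pass (median 0.692), and without the block 10 rose and 1 fell. Sqle, squalene epoxidase, was at 2.25, 1.70 and 1.80 in G-CSF cells, against 1.05, 0.69 and 0.85 in AMD3100 cells and rose by 1.05 ± 0.15 (adjusted p = 0.00174). Fdps, farnesyl diphosphate synthase, was at 0.82, 0.56 and 0.46 in G-CSF cells, against -0.46, -0.49 and -0.80 in AMD3100 cells and rose by 1.19 ± 0.20 (adjusted p = 0.00239). Sqle averaged 1.68 in CWHM-823+tGro-b blood and 0.88 in PBS marrow.

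Of heat shock and unfolded protein response genes 22 of 32 measured members (of 35 listed) rose, 3 fell and 7 did not pass (median 0.681). Herpud1, which serves the degradation of misfolded proteins of the endoplasmic reticulum, was at 0.047, -0.59 and 0.96 in G-CSF cells, against -1.95, -2.18 and -1.03 in AMD3100 cells and rose by 1.86 ± 0.18 (adjusted p = 0.00082). Xbp1, the transcription factor of that response, was at 2.29, 1.93 and 2.11 in G-CSF cells, against 0.59, -0.018 and 0.64 in AMD3100 cells and rose by 1.70 ± 0.18 (adjusted p = 0.000892). The co-chaperone Bag3 (1.81 ± 0.21) and the protein disulfide isomerase Pdia6 (1.29 ± 0.15) were higher too. Of ribosome biogenesis and MYC genes 18 of 30 measured members (of 30 listed) rose, 3 fell and 9 did not pass (median 0.571), though without the block 6 rose and 0 fell. The nucleolar proteins Nop58 (1.19 ± 0.20), Nop2 (1.24 ± 0.18) and Wdr43 (1.12 ± 0.15) and the nucleotide kinase Nme1 (1.30 ± 0.21) rose. Cytosolic ribosomal protein genes depended on the scaling: 6 of 59 measured members (of 60 listed) rose, 2 fell and 51 did not pass (median 0.0566), but with quantile normalization 24 rose and 0 fell. Rps9 rose by 0.57 ± 0.15 and Rpl5 by 0.53 ± 0.15, and Rps12 (-0.72 ± 0.21) and Rps3 (-0.52 ± 0.16) fell on their brightest probes while their other probes gave positive values. None of these 4 passed when only the 6 arrays compared were fitted, and Rps9, Rpl5 and Rps3 did not pass without the block.

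**Figure D4:**
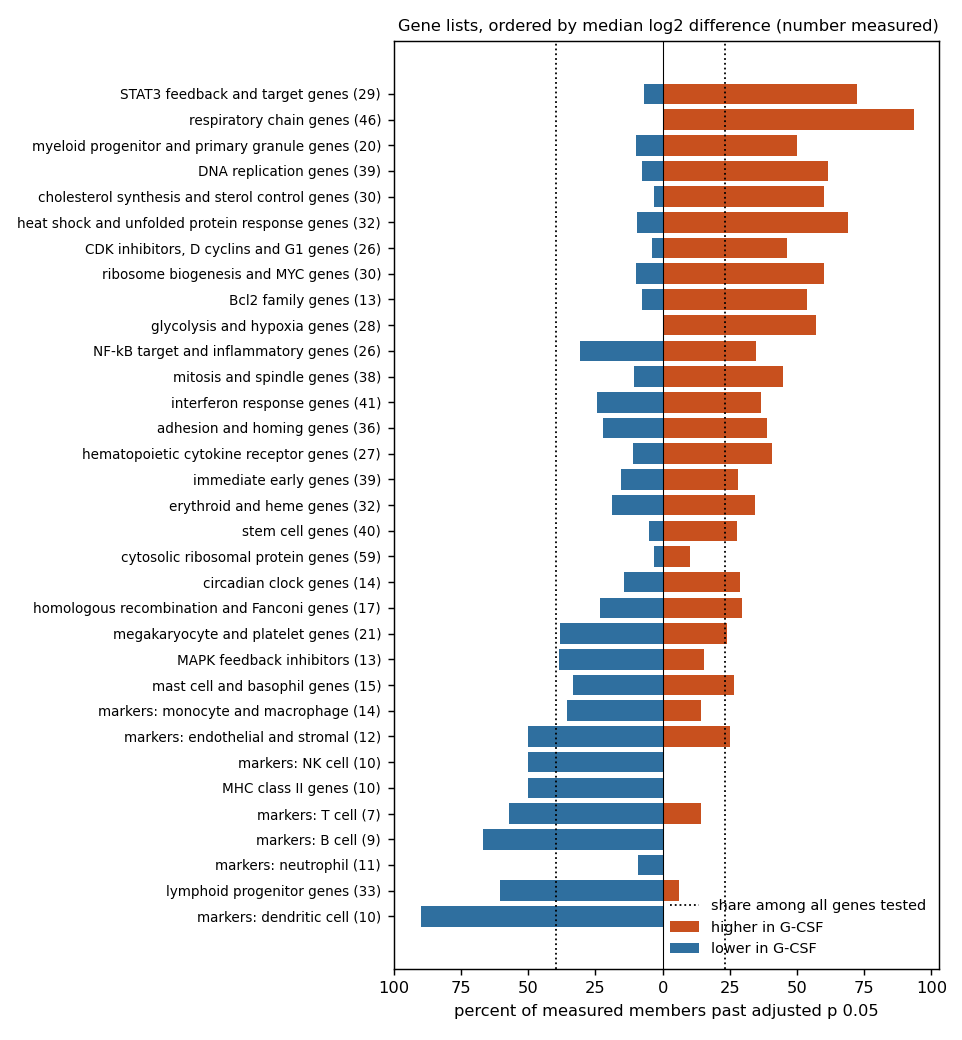
Percent of the measured members of 33 lists that passed (adjusted p under 0.05), higher in G-CSF cells to the right (orange) and lower to the left (blue), ordered by the list's median log2 difference, with the number measured in brackets. Dotted lines mark the shares among all genes tested, 23.0% higher and 39.6% lower; respiratory chain and STAT3 genes reach furthest to the right and dendritic cell markers furthest to the left.

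Of Bcl2 family genes, which control apoptosis, 7 of 13 measured members (of 15 listed) rose, 1 fell and 5 did not pass (median 0.516). Pmaip1, the p53-inducible killer NOXA, was at 1.32, 0.90 and 0.83 in G-CSF cells, against -1.81, -2.23 and -2.45 in AMD3100 cells and rose by 3.18 ± 0.24 (adjusted p = 0.000547). Bbc3, the killer PUMA, was at 0.18, 0.12 and 0.79 in G-CSF cells, against -1.37, -1.45 and -0.75 in AMD3100 cells and rose by 1.55 ± 0.24 (adjusted p = 0.00196), beside the survival factors Mcl1, given above, and Bcl2l2, which was at least 1.39-fold higher. Members that promote and members that prevent cell death thus both rose. Of clock genes, which run the daily rhythm, 4 of 14 measured members (of 18 listed) rose, 2 fell and 8 did not pass (median 0.0293). Their 28.6% higher is near the 23.0% of all genes, and their 14.3% lower is below the 39.6%. Bhlhe40, a repressor that answers to cytokines as well as to the clock, was at 1.63, 0.72 and 1.44 in G-CSF cells, against -1.50, -3.55 and -2.03 in AMD3100 cells. It had the largest increase among the named genes measured on all 6 arrays, 3.62 ± 0.37 (adjusted p = 0.000892), and averaged -1.83 in CWHM-823+tGro-b blood and -2.23 in PBS marrow. Its relative Bhlhe41 fell by the brighter probe (-1.16 ± 0.19), with 0.39 on the other. Clock exceeded background on 3 G-CSF arrays and 0 AMD3100 arrays and at least 1.44-fold higher, and Cry2, above background on 3 G-CSF arrays and 2 AMD3100 arrays, passed at 0.47 ± 0.16 but not without the block (adjusted p = 0.316) or without any 1 of the G-CSF arrays or AMD3100 array 1.

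Erythroid and heme genes went both ways: 11 of 32 measured members (of 36 listed) rose, 6 fell and 15 did not pass (median 0.132), and without the block 10 rose and 2 fell. Hba-a1, an alpha globin gene, was at 2.68, 2.74 and 2.80 in G-CSF cells, against -0.0083, 0.20 and -0.078 in AMD3100 cells (difference 2.71 ± 0.34, adjusted p = 0.00132), and it averaged 3.54 in CWHM-823+tGro-b blood and -0.91 in PBS marrow. Hbb-bt, a beta globin gene, was at least 3.47-fold higher, above background on 3 G-CSF arrays and 0 AMD3100 arrays; globin genes are near-identical copies, and their probes may share signal. The water channel gene Aqp1 was at least 7.96-fold and Cpox, an enzyme of heme synthesis, at least 4.5-fold higher (adjusted p = 0.000575 and 0.000871). Cpox averaged -1.47 in G-CSF cells and -1.63 in PBS marrow, and Aqp1 averaged -0.65 and -2.09. The members that fell include the erythroid regulator Klf1 (-1.34) and the membrane genes Slc4a1 (-0.91) and Sptb (-1.12), named after their values were seen because they went the other way. Whether red cell RNA had a part in the globin values was not tested.

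Of megakaryocyte and platelet genes 5 of 21 measured members (of 24 listed) rose, 8 fell and 8 did not pass (median -0.129). Besides Selp and Cd9, which rose, the collagen receptor gene Gp6 was at -3.39, -2.56 and -2.80 in G-CSF cells, against -0.86, -0.64 and -1.42 in AMD3100 cells (difference -1.94 ± 0.23, adjusted p = 0.00113), and Thbs1, thrombospondin, exceeded background on 1 G-CSF array and 3 AMD3100 arrays (-1.17 ± 0.22). These shares, 23.8% higher and 38.1% lower, are near the 23.0% and 39.6% of all genes, and with quantile normalization 5 rose and 6 fell. Of mast cell and basophil genes 4 of 15 measured members (of 19 listed) rose, 5 fell and 6 did not pass (median -0.551). Without the block 3 rose and 2 fell. The 26.7% higher and 33.3% lower are likewise near the shares of all genes. Cd200r4, an activating receptor of basophils and mast cells, was at -0.88, -0.77 and -0.67 in G-CSF cells, against -5.48, -3.54 and -4.69 in AMD3100 cells, above background on 3 G-CSF arrays and 1 AMD3100 array (difference 3.80 ± 0.65, adjusted p = 0.00248). The vesicle amine transporter Slc18a2 rose by 0.94 ± 0.23. Mcpt4, a mast cell chymase, exceeded background on 1 G-CSF array and 2 AMD3100 arrays (-2.36 ± 0.55), and Mitf, a mast cell regulator, fell by its brighter probe (-0.97 ± 0.18) with 1.17 on the other. The arrays of the groups overlapped for Mitf, which did not pass without the block (adjusted p = 0.196).

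The remaining largest increases among genes measured on all 6 arrays came from several classes. Sbno2, a transcriptional coregulator induced by STAT3, was at 2.03, 1.41 and 2.45 in G-CSF cells, against -1.49, -1.53 and -0.73 in AMD3100 cells (difference 3.21 ± 0.33, adjusted p = 0.000892). Tgfbi, a matrix protein induced by TGF-beta and found in monocytes, was at 1.48, 1.11 and 1.41 in G-CSF cells, against -1.33, -1.95 and -2.28 in AMD3100 cells (difference 3.18 ± 0.31). Col18a1, a collagen (3.12 ± 0.23), Dlk1, a Notch ligand family protein (2.97 ± 0.22), the calcium-binding protein S100a6 (2.94 ± 0.24), the inhibitory receptor Pirb (2.82 ± 0.26) and the orphan receptor Mrgpra2a (2.93 ± 0.50) followed. Thbs3, a thrombospondin, was at least 5.08-fold higher. Vldlr, a lipoprotein receptor (3.07 ± 0.19), and Mt1, a metallothionein (3.00 ± 0.36), belong to this set only by their brighter probe, since the other probe gave -0.12 and -0.51.

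Among the largest decreases were Scin, an actin-severing protein, at -3.51, -4.07 and -4.40 in G-CSF cells, against -1.01, -1.67 and -0.97 in AMD3100 cells (difference -2.78 ± 0.27, adjusted p = 0.000879), and Pou2af1, a B cell coactivator, at -2.03, -2.59 and -3.97 in G-CSF cells, against -0.21, -0.36 and -0.56 in AMD3100 cells (difference -2.49 ± 0.33, adjusted p = 0.00148). Plbd1, a phospholipase-like protein (-2.57 ± 0.40), Cldn13, a claudin (-2.55 ± 0.45), the potassium channel subunit Kcng1 (-2.50 ± 0.40), Cox6a2, the muscle form of a complex IV subunit (-2.40 ± 0.22), and the homeobox gene Dlx6 (-2.74 ± 0.31) were also lower. So were Ccdc177 (-3.08 ± 0.40), Mgat4e (-2.38 ± 0.42), Wdr27 (-2.38 ± 0.42) and the olfactory receptor gene Olfr1395 (-2.48 ± 0.54), the last of which moved with its family. Ms4a8a was at least 4.88-fold and the pseudogene Cyp2d37-ps at least 4.97-fold lower. Among genes with a proper symbol, 199 were above background on 3 G-CSF arrays and 0 AMD3100 arrays. Of these, 159 rose with the same sign on all 3 slides and an at-least fold above 1. The other way round there were 40 genes, and all 40 fell under the same criteria. Detection in 1 group alone chose these genes, so their direction was largely set by that choice.

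**Figure D5:**
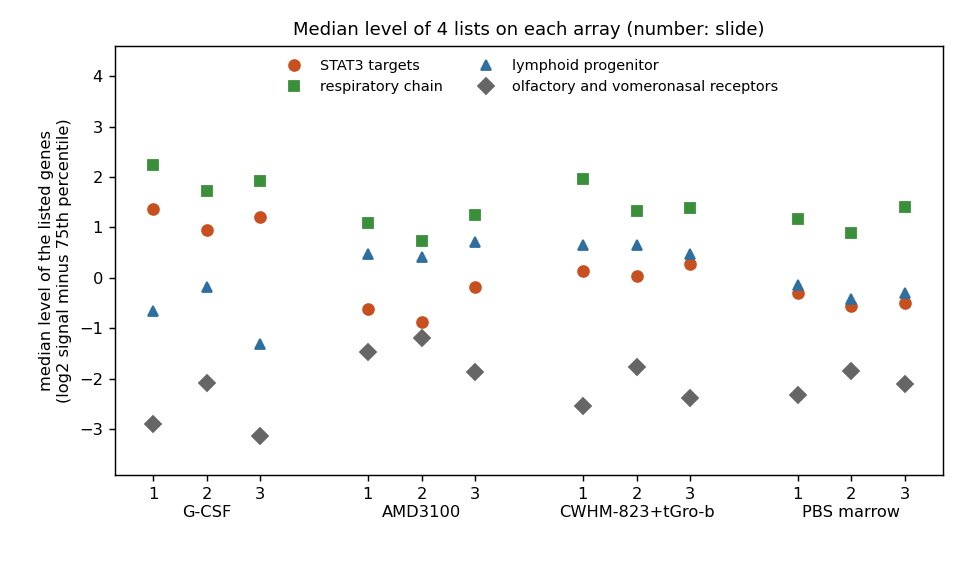
Median level (log2 signal minus the array's 75th percentile) of the measured members of 4 lists on each of the 12 arrays, G-CSF first and PBS marrow last; numbers are slides. STAT3 targets and respiratory chain genes stand higher on every G-CSF array than on any AMD3100 array and lymphoid genes lower, while the other groups lie between or overlap with them; the olfactory and vomeronasal receptor genes are also lower, at -3.12 to -2.09 in G-CSF cells and -1.86 to -1.20 in AMD3100 cells.

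The groups also differed in how far each array stood out. Across all genes the first principal component held 44.9% of the variance of the 12 arrays, with G-CSF arrays 1 to 3 at 106, 6.08 and 109 and AMD3100 arrays at -76.5, -106 and -43.9. The CWHM-823+tGro-b arrays stood at 54.9, -39.3 and 16.1 and the PBS marrow arrays at 23.5, -38.5 and -12.2. In every group the array of slide 2 was lowest, so this component varied with the slide as well as the group. Within slides 1 to 3, the genes that passed had a median absolute difference of 1.22, 0.772 and 0.932, so slide 2 gave the smallest. The sign of the fitted difference was shared on slide 1 by 99.9%, on slide 2 by 99.0% and on slide 3 by 99.7% of those genes. Of the 150 named genes that passed, 138 kept the call without any 1 array, 130 without the block and 139 with quantile normalization.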

How the data were processed

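RNA of LSK cells was amplified (WTA2) and labelled with Cy5, per the labels' protocols, and hybridised to Agilent mouse arrays with 1 colour. The deposited scanner files hold the processed red intensity of each spot, background-subtracted by the authors with Agilent Feature Extraction 11.5.1.1, per the file headers and the submitters' processing notes. The authors' second deposited table of linear normalized intensities (30354 probes) served as an alternative. Control and outlier spots were left out, spots of a probe averaged, and log2 signals were scaled to each array's 75th percentile. Probes had to be well above background on every array of 1 or more of the 4 groups, with 1 probe per gene, the brightest over the 12 arrays, giving 23698 genes; 28758 probes took their symbol from the RefSeq table.

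limma 3.58.1 in R 4.3.3 fitted group means with the slide as a block. The 4 arrays of a slide carry 1 replicate number, 1 array for each group, per the file names; deviations of same-slide arrays from their group means correlated at 0.26 to 0.616 (18 pairs). Precision is limited by the 3 arrays a group had. In simulated data for this comparison (23698 genes), 100 genes were changed by a log2 size of 1 and 100 by 2. All other genes were set equal between the groups. Of the changed genes 31% and 77% were recovered, and 8.47% of the calls were false. In the real data 62.7% of genes passed, so these shares need not carry over to them.

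Members, lists and tests were chosen with earlier results of these data known. Named were, among genes that passed with the same sign on all slides, above background on all 6 arrays and with a proper symbol, the 15 genes that rose most and the 15 that fell most, the 4 largest bounds each way, up to 4 members of each list with the smallest p, and the genes given in any case (Csf3r, Cxcr4, Cxcr2, Itga4, Itgb1, Kit, Ly6a, Cd34, Socs3, Fos, Egr1, Klf2 and Mki67). Any other gene was named after its values were seen. Some genes that meet this rule are not reported here. Lists are described by counts and medians, without a test. Alternatives varied the block, scaling, background correction, probe filter and choice, the prior, the fold threshold and the arrays. Array-median scaling, cyclic loess, a probe GC correction and the array position were added after the data were seen.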

Additional observations from a re-analysis of the deposited data

How the results depend on the processing

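The count of 14857 genes was most affected by the array position and by the slide. With the position as a factor beside the replicate block, 1 gene passed, 0 higher and 1 lower; with the position as a number, 201 passed, 117 higher and 84 lower (8251 at an unadjusted p under 0.05). With no replicate block, 7374 passed, 2996 higher and 4378 lower. Leaving out 1 array gave 10685 to 15067 genes, 3911 to 5505 higher and 6584 to 9571 lower, and leaving out a whole slide gave 5223 to 11828, 2152 to 4514 higher (3499 without slide 2) and 3071 to 7314 lower, the lowest each time without slide 1. A 2-fold minimum left 7486, 2246 higher and 5240 lower. The split moved with the scaling: cyclic loess gave 6191 higher and 5725 lower, the array median 7235 and 6750, and the authors' values 5699 and 6354. Normexp correction, other probe filters and the GC correction with the block kept the total within 1.5 times.

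Few named genes turned sign, most of them genes that had not passed. Leaving out arrays gave Egr1 -0.028 (without G-CSF array 3) to 0.48, and it was at -0.0232 without slide 3, -0.289 with the GC correction, and -0.265 and -0.247 with the position as a factor and as a number. For Cxcr2 that range was -0.0801 (without AMD3100 array 2; -0.00645 without array 3) to 0.381, and it was at -0.018 without slide 3. Itga4 was at -0.019 with cyclic loess and -0.412 with the GC correction, which also gave Kit -0.161 and Cry2, which had passed, -0.107. Fos was at 0.118 with the array median. Camp was at 0.292 and 0.342, and Ngp at 0.099 and 0.337, with the position as a factor and as a number. Of other genes that passed, Bard1 was at -0.512 with quantile normalization and in the authors' table, and the mean of a gene's probes gave Bard1 -1.03, Rps3 0.0934, Mitf 0.104 and Adgre1 0.614, where the probes of these genes disagree. Apart from these probe disagreements the cause was not tested. All arrays being 1 colour and amplified, signal over background limits what can be said of dim genes.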
